A study of Caenorhabditis elegans with 2 samples.

Results

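The heterochronic genes of Caenorhabditis elegans set the order in which cells adopt the fates of successive larval stages. The 10 genes lin-14, lin-28, lin-41, lin-42, lin-29, lin-46, lin-66, ain-1, hbl-1 and daf-12 were examined for occupancy by ZAG-1, out of 19973 nuclear protein-coding genes in the annotation. They were chosen by name with their regions and signal scores in these same lists known, so the counts below describe them and carry no test. Occupancy was mapped by transcription factor ChIP-seq, in which DNA fragments of 150 to 350 bp, per the labels, were recovered with ZAG-1 and sequenced. ZAG-1 is the worm ZEB-family zinc finger homeodomain protein, known for its part in neuronal differentiation. Both samples, biological replicates 1 and 2, were whole L3 larvae of pooled sex from strain OP83, genotype unc-119(ed3) III; wgIs83, an unc-119 mutant background with an insertion that carries eGFP-tagged zag-1. They form 1 group, so no condition was compared with another. The cells in which the tagged protein occupied a site cannot be told from whole animals.

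In this pathway LIN-14, HBL-1 and LIN-28 hold cells at early larval fates. MicroRNAs of the lin-4 and let-7 families act through sites in the messenger RNAs of these genes and lower their output as the animal develops, and the loss of LIN-41 at the end frees LIN-29 to start the adult programme. The nuclear receptor DAF-12 ties the same steps to a steroid signal, and LIN-42 is the worm relative of the circadian protein Period.

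The deposited optimal set held 357 regions, the same regions as the 357 highest of a joint list of 10005 made from both replicates, which includes background regions. The nuclear genome holds 339 of the 357 optimal regions. The others are mitochondrial, and they are counted in the ranks and in the shares given over all optimal regions or windows. The single-replicate lists held 30000 regions for replicate 1 and 26202 for replicate 2, also with background. Every region carries the authors' signal score against a control, which ranks regions within a list and is not scaled between lists. Scores ran from 33.002 to 393 in the optimal set and from 12.2 to 393 in the joint list, and read depth is unknown. No list placed a region at zag-1 itself under the rule used here, and unc-119, the marker of the strain, had no optimal region and 2 joint regions, the higher with a score of 16.1 at rank 3516. A gene was given every region whose summit lay in its body or within 5000 bp upstream on its strand.

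Of the 10 heterochronic genes, 6 had at least 1 optimal region (lin-14, lin-28, lin-41, lin-42, lin-66 and ain-1), where 3.03% of all protein-coding genes did. Together they held 7 such regions, of which 2 lay at lin-14. The joint list reached 8 of the 10 genes with 41 regions, where it reached 48% of all genes. The exceptions were lin-29, the gene of the zinc finger protein that executes the larval-to-adult switch, and lin-46, which acts below lin-28. Which of the genes had such regions was known when they were listed, so these counts are a description and not a finding.

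The 101 bases centred on the summit are shown for 5 of the 7 optimal regions and for the daf-12 region that ranked just below the optimal set, because the base composition and short words described further on are read from them. They are from the RefSeq genome of assembly WBcel235, which is ce11, on the strand of the gene, 5′ to 3′. Capitals mark GAGAGA, or GAGACGCAG, a word chosen after these windows were seen, on either strand, so TCTCTC and CTGCGTCTC are in capitals too.
lin-14 first, chrX:11473362-11473462, plus strand: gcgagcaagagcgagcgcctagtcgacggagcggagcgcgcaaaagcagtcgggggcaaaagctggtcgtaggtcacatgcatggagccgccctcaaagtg
lin-14 second, chrX:11472089-11472189, plus strand: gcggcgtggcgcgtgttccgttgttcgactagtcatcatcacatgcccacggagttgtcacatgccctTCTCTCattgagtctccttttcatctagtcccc
lin-42, chrII:1246950-1247050, minus strand: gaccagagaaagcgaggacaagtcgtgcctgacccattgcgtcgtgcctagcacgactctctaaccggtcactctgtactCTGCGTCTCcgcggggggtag
lin-66, chrIV:13887562-13887662, plus strand: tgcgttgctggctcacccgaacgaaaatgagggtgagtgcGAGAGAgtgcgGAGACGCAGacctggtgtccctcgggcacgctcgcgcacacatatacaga
ain-1, chrX:16612515-16612615, plus strand: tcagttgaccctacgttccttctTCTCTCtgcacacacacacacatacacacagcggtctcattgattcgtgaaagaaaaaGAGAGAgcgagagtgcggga
daf-12, chrX:10637627-10637727, plus strand: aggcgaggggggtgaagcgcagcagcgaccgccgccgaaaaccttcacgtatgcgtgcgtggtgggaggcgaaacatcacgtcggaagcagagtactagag

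lin-14 encodes a nuclear protein that specifies the earliest larval fates and is the classic target of the lin-4 microRNA. It had 2 optimal regions, at chrX:11473220-11473603 and chrX:11471947-11472330, where 0.185% of all genes had 2 or more. The first had a joint score of 47.8 (rank 153) and lay 7852 bp after the start of the long transcript T25C12.1a.1 and 6949 bp before the start of the short transcript T25C12.1b.1. The second had a joint score of 39.7 (rank 214) and lay 6579 bp after the long start. Both sat in the third intron of the long transcript, which is 11174 bp long and also holds the start of the short transcript. Replicate 1 placed a summit 0 bp from the first region, with a score of 15.2 (rank 277), and replicate 2 placed one 44 bp away, with a score of 32.5 (rank 143). For the second region the replicate summits were 40 bp away with a score of 18.4 (rank 173) in replicate 1 and 12 bp away with a score of 24.6 (rank 268) in replicate 2. The replicates thus ordered the pair differently, the second region standing higher in replicate 1 and the first higher in replicate 2.

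The joint list placed 18 regions in the 25.3 kb window of lin-14 (gene body chrX:11465560-11485871), of which 11 were intronic, 3 upstream, 2 in coding exons and 2 in the 3′ untranslated region. Regions in 3 neighbouring pairs overlapped, with summits 200, 203 and 355 bp apart, so the 18 regions cover 15 separate stretches. The window held 0.711 joint regions per kb, and 0.200% of all genes were at least as dense. Among all genes, 1 other, rhgf-3, had as many or more, with 23 in a window of 54.4 kb and none in the optimal set. Below the optimal pair the highest was an intronic region 1886 bp before the short start, with a joint score of 25.1 (rank 722). Its deposited −log10 q-value, where higher is stronger, was 1.07, against 1.38 for the optimal pair. The regions below it ran from 0.487 (rank 1401) down to 0.0266 (rank 8542), so most of the 18 were weak calls. Of the 18, both replicates held 5 within 100 bp of the joint summit, replicate 1 alone 6 and replicate 2 alone 7. Most of the joint regions of lin-14 were thus matched in a single replicate at that distance, while both optimal ones were matched in both. For the regions matched in a single replicate, the nearest summit of the other lay from 122 bp (rank 722) to 754 bp (rank 1971) away. It lay 139 bp away at rank 2108, 146 bp at rank 3396 and 170 bp at rank 1401, but 479 bp at rank 4704. The split between the replicates therefore depends on the distance chosen.

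hbl-1 encodes a zinc finger protein related to Drosophila Hunchback that keeps cells at second-stage fates and is a target of the let-7 family. It had no optimal region and 2 joint regions in a window of 10.6 kb on chromosome X (gene body chrX:5822142-5827755). One lay 2406 bp upstream of the first start with a joint score of 16.6 (rank 3087), and the other lay in an intron 335 bp after that start with a joint score of 15.7 (rank 3888). Both replicates held both. The upstream region scored 7.16 (rank 6034) in replicate 1 and 8.97 (rank 8319) in replicate 2, and the intronic region scored 5.85 (rank 11244) in replicate 1 and 5.82 (rank 25306) in replicate 2. The positions recurred in both replicates while the intronic region was near the bottom of the replicate 2 list. Both were weak calls, with −log10 q-values in the joint list of 0.184 upstream and 0.137 in the intron, against 1.38 for every optimal region.

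lin-28 encodes the RNA-binding protein that blocks maturation of let-7. Its optimal region, chrI:8409701-8410084, had a joint score of 36.01 (rank 273) and its summit lay 27 bp after the start of the short transcript F02E9.2b.1, in the 5′ untranslated region, which is 911 bp after the start of the long transcript F02E9.2a.1 and inside that transcript's first intron. Replicate 1 scored it 17.01 (rank 205) with a summit 11 bp away, and replicate 2 scored it 17.8 (rank 619) with a summit 9 bp away. No other optimal region of the 10 genes was so close to a start. The gene had 3 further joint regions, and the 8.18 kb window held 0.489 joint regions per kb, a density that 1.33% of all genes reached. The second, 654 bp upstream, scored 18.2 (rank 2120) and was held by replicate 2 and not by replicate 1. The other two lay nearest to the starts of F02E9.7 and F02E9.1 rather than lin-28.

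lin-66 and lin-46 act around lin-28, lin-66 lowering its output and lin-46 working downstream of it. lin-66 had an optimal region at chrIV:13887420-13887803, 467 bp upstream of its first start, with a joint score of 38.2 (rank 238). The replicates differed most here among the optimal regions of the 10 genes. Replicate 1 scored it 6.83 (rank 7118) with a summit 75 bp away, and replicate 2 scored it 31.0 (rank 159) with a summit 26 bp away. Its other joint regions scored 14.4 (rank 5462) in an intron and 14.1 (rank 5976) in the 3′ untranslated region, and both replicates held them. They were weak calls, with −log10 q-values in the joint list of 0.0781 and 0.0621, and replicate 2 ranked them 12878 and 19028. lin-46 had no joint region. Replicate 1 held 1 region in its 6.88 kb window, with a score of 4.23 (rank 23262), and replicate 2 held 2, with scores of 8.31 (rank 10619) and 7.96 (rank 12040). All of these lay nearest to the starts of srd-35 or R186.3, and none was shared between the replicates.

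ain-1 encodes a GW182-family protein of the complex through which microRNAs silence messenger RNAs, and it held the highest score of the 10 genes. Its optimal region, chrX:16612373-16612756, had a joint score of 64.4 (rank 83) and lay 886 bp upstream of the only annotated start. Replicate 1 scored it 15.4 (rank 267) with a summit 43 bp away, and replicate 2 scored it 48.3 (rank 61) with a summit 2 bp away. The only other joint region in its window, scoring 16.7 (rank 3038), lay nearest to the start of F59C12.3.

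lin-41 and lin-29 act late. lin-41 encodes the RNA-binding TRIM-NHL protein that let-7 turns off, and it had a single joint region in its 12.7 kb window, which was an optimal one. This region, chrI:9343829-9344212, lay 1525 bp upstream of the first start with a joint score of 35.9 (rank 277). Replicate 1 scored it 15.8 (rank 247) with a summit 38 bp away, and replicate 2 scored it 22.3 (rank 329) with a summit 58 bp away. lin-29 had none in a window of 22.7 kb (gene body chrII:11917642-11935343). Each replicate held 4 regions there, the highest with a score of 6.95 (rank 6706) in replicate 1 and 7.23 (rank 15622) in replicate 2, and no summit of one lay within 100 bp of a summit of the other. lin-29 thus had no joint region in a window nearly as long as that of lin-42, which had 4.

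lin-42, whose expression cycles with the moults, had an optimal region at chrII:1246808-1247191, with the lowest score of the 7, 33.4 (rank 346). It lay in the first intron, 8173 bp long, of the long transcripts F47F6.1d.1 and F47F6.1f.1, 5359 bp after their start and 2965 bp upstream of the start shared by F47F6.1b.1 and F47F6.1c.1. The summit also fell in the noncoding RNA gene F47F6.13. Replicate 1 scored it 10.1 (rank 1514) with a summit 1 bp away, and replicate 2 scored it 20.4 (rank 426) with a summit 0 bp away. The gene had 3 further joint regions, scoring 20.2, 16.8 and 13.4, of which both replicates held the highest.

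daf-12 encodes the nuclear receptor for dafachronic acids, which controls transcription of let-7-family microRNAs. It had no optimal region, and its highest joint region, chrX:10637485-10637868, stood 9 ranks beyond the end of the optimal set. The score was 32.6 (rank 366), which is 0.989 times the lowest optimal score, while the lin-42 region stood 11 ranks inside that end. It lay in the first intron, 8353 bp long, of the longest transcript, F11A1.3e.3, 1769 bp after its start. Replicate 1 scored it 12.7 (rank 580) with a summit 49 bp away, and replicate 2 scored it 20.4 (rank 425) with a summit 6 bp away. In both replicates' own scores the daf-12 region was as high as the lin-42 region or higher, and it is the joint score, which the optimal set follows, that parts them. The window of 35968 bp held 6 more joint regions, with scores from 13.5 to 19.4 and ranks from 7123 to 1619. Their −log10 q-values ran from 0.421 down to 0.0476, against 1.38 for the highest region, so these 6 were weak calls. Both replicates held 5 of the 7.

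**Figure D1:**
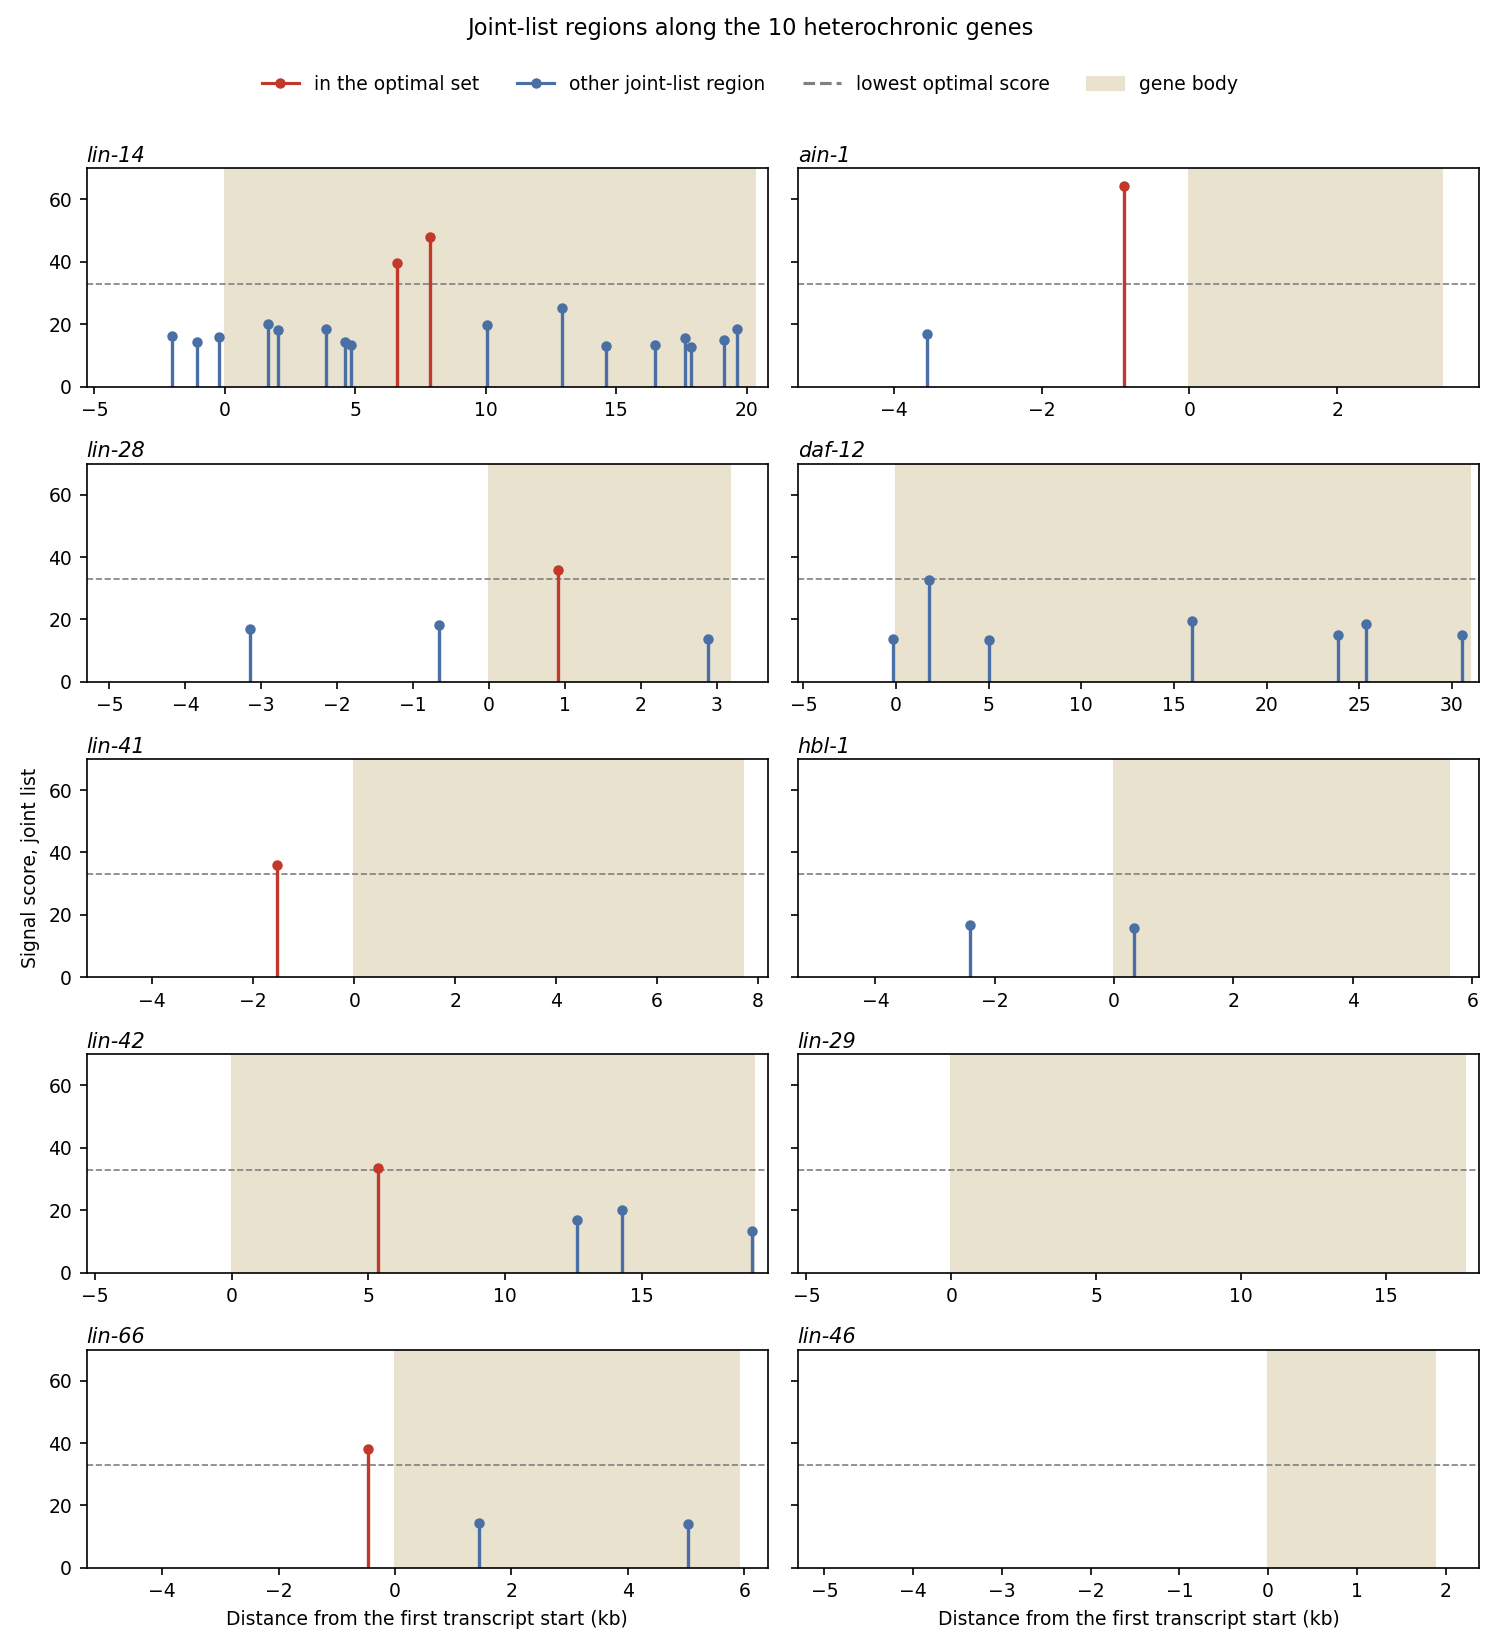
Each panel shows 1 gene, with distance from its first transcript start in kb on the x axis (negative is upstream) and the joint-list signal score on the y axis. Red stems are the 7 regions in the optimal set, blue stems the other 34 joint regions, shading the gene body and the dashed line the lowest optimal score, 33.002. lin-14 is filled along its length, the daf-12 region sits just under the line, and the lin-29 and lin-46 panels are empty.

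By position, 3 of the 7 optimal regions at the heterochronic genes lay upstream, 3 in introns, 1 in a 5′ untranslated region and 0 in coding exons. Of the 41 joint regions, 20 lay in introns, 11 upstream, 6 in 3′ untranslated regions, 3 in coding exons and 1 in a 5′ untranslated region. The nearest protein-coding start belonged to the heterochronic gene for 7 of 7 optimal regions and for 36 of 41 joint regions. Some of these genes have many starts of their own, 9 at daf-12 and 5 at lin-42. The same shares over all optimal and joint regions are not given here, so these counts do not set the genes apart. The 4 genes on chromosome X held 29 of the 41 joint regions, against 12 at the 6 autosomal genes, and 18 of the 29 were at lin-14. The joint-list share of all X-linked genes is not given here, so this split describes these genes only. Of the 4 X-linked genes, lin-14 and ain-1 had an optimal region, where 3.66% of all X-linked genes did.

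The windows of these genes were long, with a median of 11.8 kb against 7.03 kb for all genes, and a longer window has more room for a region. Of the 7 heterochronic genes with windows of 10000 bp or more, 4 had an optimal region, where 5.44% of all genes with such windows did, and 6 of the 7 had a joint region, where 72.3% did. Of the 4 with windows of 20000 bp or more, 2 had an optimal region (lin-14 and lin-42), where 6.44% of all such genes did. Of the 3 with shorter windows, 2 had one (lin-28 and ain-1), where 3.03% of all genes of any window length did. The share of all genes with shorter windows is not given here, so this count is a description only. Over the summed windows the heterochronic genes held 0.247 joint regions per kb, against 0.0969 over all genes, and lin-14 contributed 18 of the 41.

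**Figure D2:**
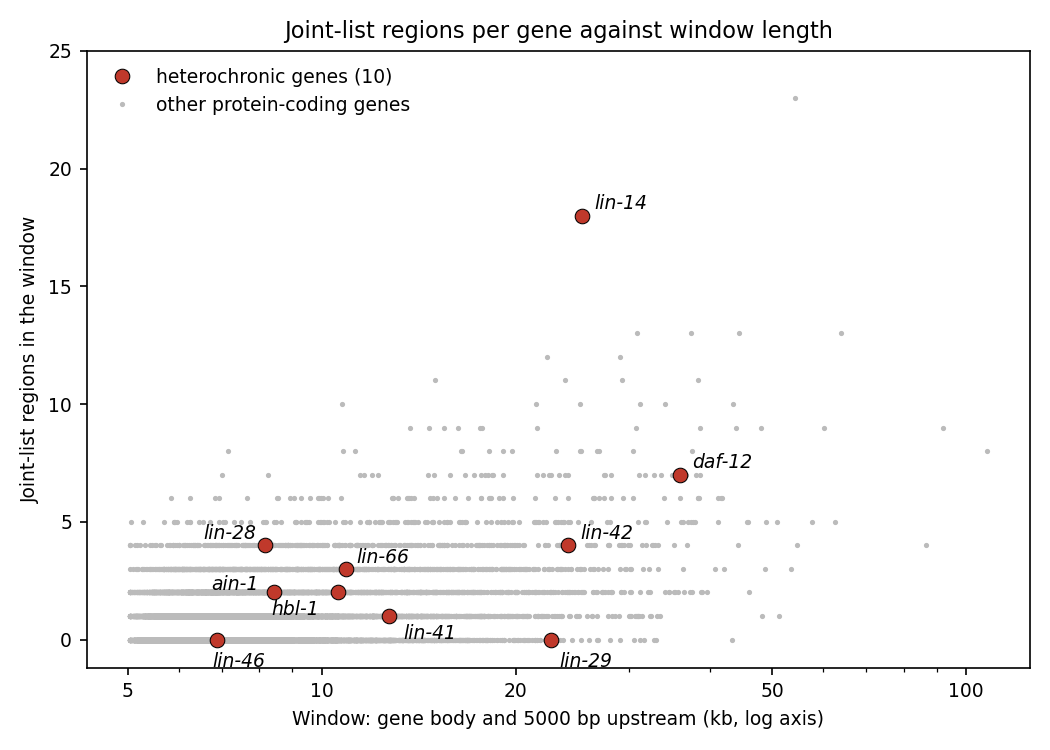
Each point is 1 protein-coding gene, with the length of its window in kb on a log x axis and the number of joint-list regions in it on the y axis. The 10 heterochronic genes are red and all other genes grey; lin-14 with 18 regions stands above all other genes but 1, while lin-29 has 0 regions at a window length close to that of lin-42.

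The replicate lists were compared by asking whether each held a summit within 100 bp. The optimal set was made with these lists by the irreproducible discovery rate, which selects on agreement between replicates. The joint list was made from both replicates. Agreement of their regions with the replicates is thus partly built in. Both replicates held 7 of 7 optimal regions at the heterochronic genes, against 312 of the 357 optimal regions, or 87.4%. Both held 22 of the 41 joint regions (53.7%), against 35.3% of the whole joint list. By gene this was 3 of 4 at lin-28, 3 of 3 at lin-66, 2 of 2 at hbl-1, 5 of 7 at daf-12, 2 of 4 at lin-42, 1 of 2 at ain-1 and 1 of 1 at lin-41. Each replicate on its own reached 10 of the 10 genes, where replicate 1 reached 85.4% and replicate 2 reached 81.1% of all genes. Of the 78 replicate 1 regions at these genes, replicate 2 held 23 (29.5%), against 13.9% over the whole list, and of the 76 replicate 2 regions, replicate 1 held 23 (30.3%), against 15.9% over the whole list. A region found in both lists lay at 8 of the 10 genes, where 26.2% of all genes had one. These shares of all genes were not matched for window length, and the median window of the heterochronic genes was longer.

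Among the 7 optimal regions, the rank in replicate 1 ran from 173 to 7118 and the rank in replicate 2 from 61 to 619. The lin-66 region was within the highest 357 of replicate 2 and far outside them in replicate 1, while the lin-28 region was within the highest 357 of replicate 1 and outside them in replicate 2. The lin-42 region was outside the highest 357 of both, at rank 1514 in replicate 1 and rank 426 in replicate 2. Taking the 357 highest regions of replicate 1 alone gave lin-14, lin-28, lin-41, ain-1 and daf-12, and those of replicate 2 alone gave lin-14, lin-41, lin-66 and ain-1. daf-12 entered through another region than the one described above, chrX:10642399-10642782, in an intron 1818 bp upstream of the nearest start, with a score of 14.6 (rank 336) in replicate 1. The joint list held no region there, and the nearest replicate 2 summit was 310 bp away with a score of 11.6 (rank 3162). lin-14, lin-41 and ain-1 were thus reached by both single-replicate lists and the optimal set.

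**Figure D3:**
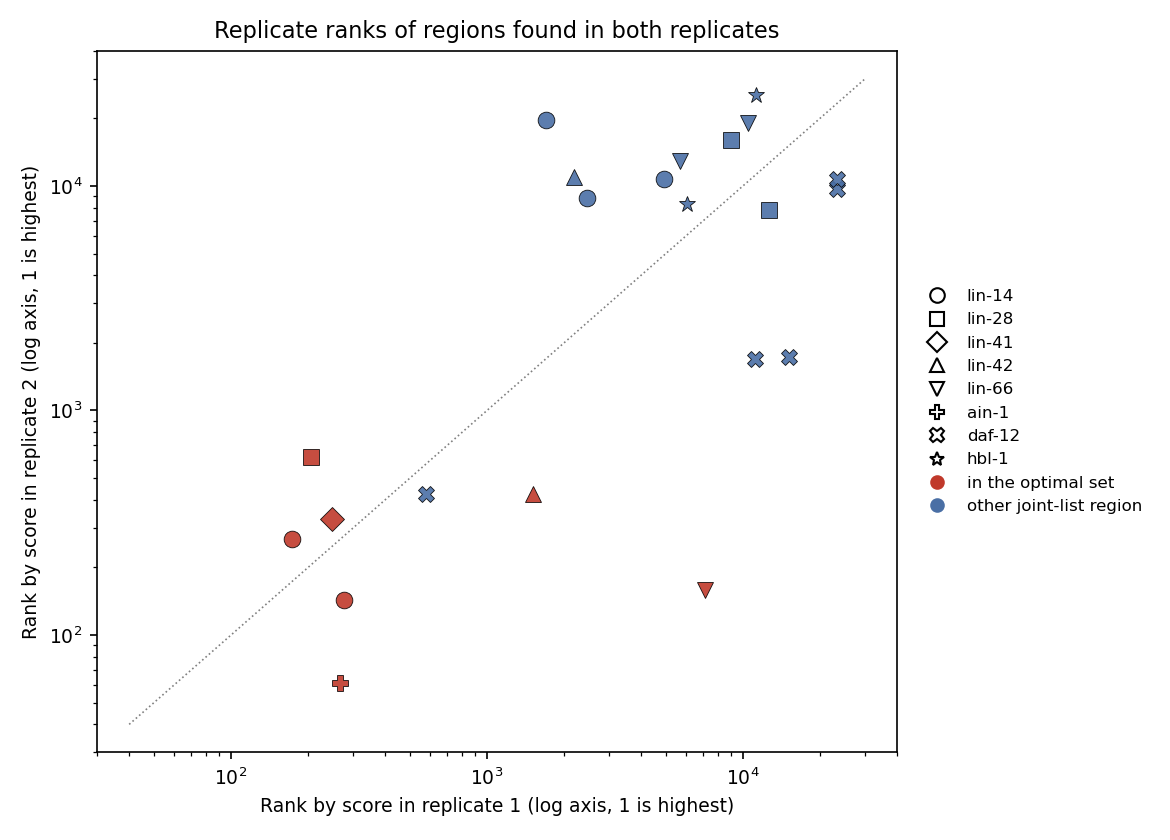
Each point is a joint-list region of a heterochronic gene that both replicates hold within 100 bp, with its rank in replicate 1 on a log x axis and its rank in replicate 2 on a log y axis, where 1 is the highest score. Red points are the 7 optimal regions and blue points the other 15; the dotted line marks equal ranks, and the lin-66 optimal region lies farthest from it among the red points.

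The 101-base windows around the summits, those printed above and those of lin-28 and lin-41, were scanned for 7 words on both strands, none of which contains another. GAGAGA was in 3 of the 7 windows of the optimal regions (42.9%), with 2 matches at ain-1, 1 at lin-66 and 1 at the second lin-14 region. It was in 132 of the 357 optimal windows of the whole set (37.0%). At the other 34 joint regions of the heterochronic genes it was in 4 windows (11.8%), against 7.94% of all other joint windows and 7.27% of windows around protein-coding starts. The other words were in 0 of the 7 windows. Over all optimal windows, CACCTG had a share of 1.96%, against 1.88% of all other joint windows and 2.90% of windows around starts, and CAGGTA, a close variant of it, had 1.12%, against 1.66% and 3.78% in the same order. The palindrome CACGTG was in 3.36% of all optimal windows, against 1.33% of other joint windows and 1.85% of those around starts. For CAGCTG the shares were 2.80%, against 1.82% and 2.05%. The GATA-type word GATAAG was in 1.40% of all optimal windows, against 3.25% of other joint windows and 5.25% of those around starts, and the AP-1-type word TGACTCA in 0.840%, against 0.902% and 0.925%. The longest run of only G and A, or only C and T, had a median of 10 bases in the 7 windows, against 9 in all optimal windows, and reached 25 bases at lin-41. The windows had a median GC content of 54.5%, from 43.6% at lin-41 to 63.4% at the first lin-14 region, against 48.5% over all optimal windows and 36.6% around protein-coding starts. The daf-12 window, at 62.4%, was like the higher of them, and the other 34 joint windows of these genes had a median of 37.1%, against 33.7% over all other joint windows.

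After the windows were seen, each of the 21 pairs among the 7 optimal windows was searched for its longest shared word, on either strand. The lin-42 and lin-66 windows share GCGGAGACGCAGA, 13 bases, on opposite strands as printed, and among all 357 optimal windows these are the only 2 that hold it. A shared word of 13 bases occurs in 0.761% of the 57291 pairs of optimal windows that lie apart in the nuclear genome. That share is for a single pair, while the match here is the longest of 21 pairs, so it does not measure how rare the match is. GAGACGCAG, a stretch of 9 bases within the 13, was picked after the windows were seen and by no set rule. The 2 of the 7 windows that hold it are the pair it was taken from, so that count was fixed by the choice. It is in 45 of the 357 optimal windows (12.6%), these 2 included, against 1.35% of all other joint windows and 0.508% of windows around protein-coding starts. Among the 21 pairs the next longest were 10 bases, between lin-66 and ain-1 and between lin-28 and lin-41, and 9 bases, between the pair of lin-14 windows and between the second lin-14 window and ain-1.

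The microRNAs that act on these genes were taken from a list of 5, and their mature sequences are shown to let the shared seed be seen. They were read from the RefSeq annotation and genome of WBcel235 at the positions given, 5′ to 3′, with the seed, bases 2 to 8, in capitals.
lin-4, chrII:5902269-5902289, plus strand: uCCCUGAGaccucaaguguga
let-7, chrX:14744234-14744255, minus strand: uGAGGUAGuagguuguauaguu
mir-48, chrV:14364472-14364494, minus strand: uGAGGUAGgcucaguagaugcga
mir-84, chrX:16022447-16022470, minus strand: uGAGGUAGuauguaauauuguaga
mir-241, chrV:14366248-14366268, minus strand: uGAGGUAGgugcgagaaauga
The last 4 share the seed GAGGUAG and form the let-7 family named here, and lin-4 has the seed CCCUGAG.

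All 4 of these let-7-family genes had an optimal region in their windows, and lin-4 had none, where 8.81% of the 261 annotated microRNA genes had one. The microRNA list and the lists below were chosen with earlier results of these data known, so their counts are a description and not a finding. The 4 genes have 3 regions, since mir-48 and mir-241 are neighbours on chromosome V and share the region chrV:14366547-14366930, with a joint score of 55.2 (rank 115). It lies 456 bp upstream of the mir-241 precursor and 2230 bp upstream of the mir-48 precursor, and the nearest protein-coding start, of unc-39, is 6335 bp away. Replicate 1 placed a summit 3 bp away (rank 262) and replicate 2 one 9 bp away (rank 96). The let-7 region, chrX:14747045-14747428, had a joint score of 39.2 (rank 219), with a summit 78 bp away in replicate 1 (rank 134) and 13 bp away in replicate 2 (rank 255). It lies 1916 bp upstream of the longest let-7 primary transcript and 66 bp from the start of the protein-coding gene C05G5.2, so the rule alone cannot give it to let-7. The mir-84 region, chrX:16024635-16025018, had a joint score of 34.1 (rank 327), 2349 bp upstream of the precursor, with a summit 39 bp away in replicate 1 (rank 4742) and 13 bp away in replicate 2 (rank 240). As at lin-66, replicate 1 ranked the mir-84 region far lower than replicate 2 did. At lin-4 the highest joint region, 257 bp upstream, scored 19.2 (rank 1684). The joint list reached 5 of the 5, where it reached 39.5% of microRNA genes.

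The windows of these 3 regions are shown because their base composition differs, on the strand of the microRNA and from the same genome. None holds GAGAGA or GAGACGCAG.
mir-241 and mir-48, chrV:14366689-14366789, minus strand: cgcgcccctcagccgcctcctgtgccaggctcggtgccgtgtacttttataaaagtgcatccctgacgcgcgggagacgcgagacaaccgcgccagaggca
let-7, chrX:14747187-14747287, minus strand: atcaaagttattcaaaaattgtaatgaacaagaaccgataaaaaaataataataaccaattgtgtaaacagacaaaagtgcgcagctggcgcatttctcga
mir-84, chrX:16024777-16024877, minus strand: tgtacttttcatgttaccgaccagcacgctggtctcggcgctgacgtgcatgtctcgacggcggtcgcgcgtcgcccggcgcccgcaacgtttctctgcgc
The GC content is 65.3% in the windows of mir-241 and mir-48 and of mir-84, and 31.7% in the let-7 window, which is below that of every optimal window at the 10 heterochronic genes. Of the 7 words, the let-7 window holds CAGCTG and the other two hold none.

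Among proteins of the microRNA machinery, 4 of 10 had an optimal region, where 3.03% of all protein-coding genes did, and 8 of 10 a joint region, where 48% did. nhl-2, a TRIM-NHL cofactor of microRNA silencing, scored 85.1 (rank 52), but its region lies nearest to the start of tag-340. puf-9, a Pumilio-family RNA-binding protein that acts on hbl-1, scored 63.5 (rank 85), 293 bp upstream of its own start. The regions of drsh-1, which makes microRNA precursors, and of xrn-2, a nuclease that degrades microRNAs, scored 38.5 (rank 234) and 35.2 (rank 295) and lie nearest to the starts of cox-5B and Y48B6A.1. puf-9 was thus the only one of the 4 whose own start was nearest. When each region went to the gene of the nearest start, 1.52% of all protein-coding genes had an optimal region.

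Around DAF-12, 1 of 7 genes of the dafachronic acid pathway had an optimal region and 3 of 7 a joint region, against the same 3.03% and 48% of all protein-coding genes. din-1, a corepressor partner of DAF-12, had 2 optimal and 11 joint regions, the highest with a score of 45.5 (rank 164), 5 bp after a start. daf-9, which makes dafachronic acids, had no joint region. Among 10 oscillating and temporal regulators, 1 had an optimal region and 6 a joint region, and the joint counts of both lists stand near that share of 48%. myrf-1, a membrane-bound transcription factor of moulting and of lin-4 expression, scored 48.4 (rank 149), 393 bp upstream of its start. Of 10 partners and targets of the heterochronic genes, 0 had an optimal region, against 3.03% of all protein-coding genes, and 8 had a joint region, against 48%, the highest being lep-5, a long noncoding RNA, with a score of 26.3 (rank 635) and sea-2 with 22.0 (rank 1052). Over the 36 protein-coding genes of these lists, 6 had an optimal region, where 3.03% of all protein-coding genes did, 24 had a joint region, where 48% did, and 15 had a region found in both replicates, where 26.2% did.

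**Figure D4:**
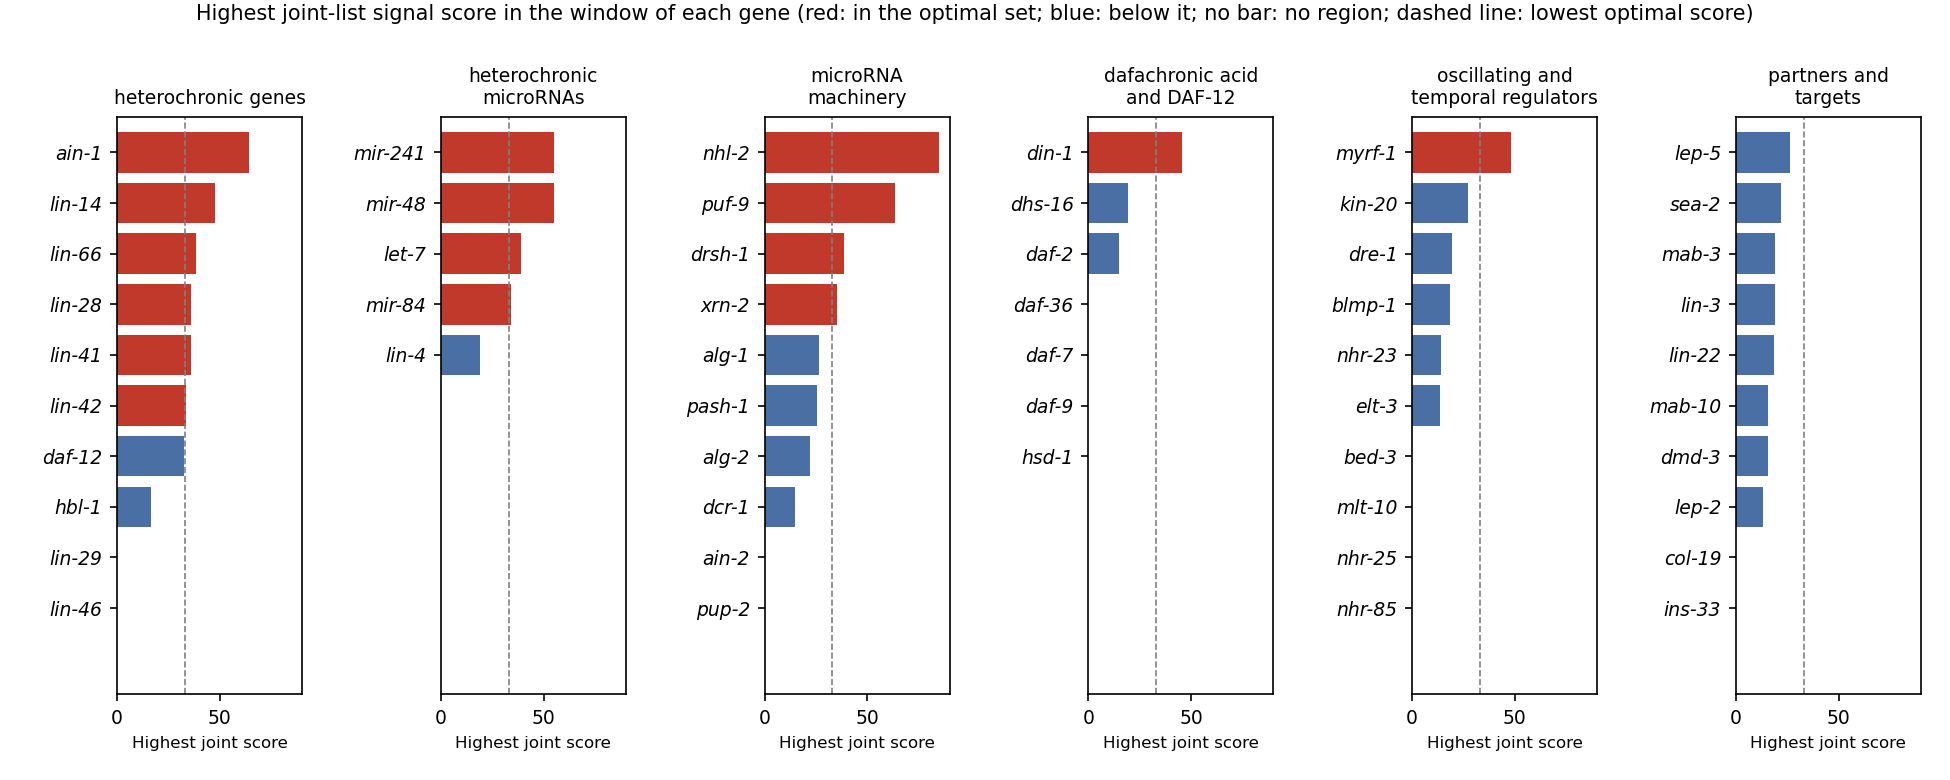
Bars give the highest joint-list signal score in the window of each gene, for the 10 heterochronic genes at the left and for 5 lists of genes of the pathway to the right. Red bars are regions in the optimal set, blue bars regions below it, the dashed line the lowest optimal score of 33.002, and a gene with no bar has no joint region; mir-241 and mir-48 share 1 region.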

How the data were processed

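ZAG-1 ChIP-seq regions of 2 biological replicates were analysed in the ce11 build (WBcel235) with Ensembl release 115 gene models; names those models lack came from RefSeq. Per the labels and deposited notes, the authors made the replicate and joint lists from the alignments with a control file, and the optimal set from those lists by the irreproducible discovery rate. Which aligner, caller and threshold they used is not given in the sources used here. For each region the authors deposited a signal score, used for ranking, a −log10 q-value and the summit position. The −log10 q-value was not used for ranking because the whole optimal set shared 1 value, 1.38. It differs within the joint list and is given for some regions of lin-14, hbl-1, lin-66 and daf-12. The ce10 lists and the control were not analysed here. No read counts were at hand, so no score has an interval.

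Coordinates are 1-based, and rank 1 is the highest score. Summits within 100 bp counted as the same region; words were sought within 50 bp of the summit. The members and lists were chosen with earlier results of these data known, so no test was run. Genes named were the 10 members, pathway genes with an optimal region or up to 2 with the highest joint score, the genes of the nearest starts, zag-1 and unc-119; rhgf-3, daf-9 and lin-4 were named after their values were seen. pup-1 matched no gene name and was not analysed here. Python 3.11.15 was used, with NumPy 2.4.6, matplotlib 3.10.9 and SciPy 1.17.1, and the scripts were tested on simulated data. Alternatives covered the window, the assignment, the threshold, each replicate alone, the summit distance and the word window; the longest shared words were searched after the data were seen.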

Additional observations from a re-analysis of the deposited data

How the results depend on the processing

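Of 46 alternative values for 8 counts and shares, 36 stayed within 1.5 times the reported value. In the upper 178 regions of the optimal set, 2 heterochronic genes (lin-14 and ain-1) had 2 regions, and 1.44% of all genes had one. The share of all genes with an optimal region was 1.62% with 1000 bp upstream, 1.97% with 2000 bp and 1.52% when a region went to the gene of the nearest start within 5000 bp. The share of all genes with a region in both replicates was 14.4% with 1000 bp upstream and 5.35% with the highest 5000 regions of each replicate. GAGAGA was in 5 of the 7 optimal regions within 100 bp of the summit and in 6 over the whole region, against 3 within 50 bp. Over all optimal regions its share was 51.8% within 100 bp and 61.6% over the whole region, against 37.0% within 50 bp, and over all other joint regions it was 14.99% within 100 bp, 24.5% over the whole region and 7.94% within 50 bp. With 1 replicate left out, 4 to 5 genes had 5 to 6 of the highest 357 regions, and 2.80% to 2.89% of all genes had one. lin-41 had no optimal region with 1000 bp upstream, and lin-14 had none under the nearest-start rule, since both its summits lie over 5000 bp from a start. No paired analysis was possible because both samples belong to a single group. The unknown depth limits what the absence of a region says at lin-29 and lin-46.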
